A study of Ictidomys tridecemlineatus with 15 samples.

Results

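Merged units are stretches of the liver genome in which genes overlapped on the same strand and were therefore counted as 1 feature. Their names carry every gene they cover, joined by colons. They were chosen by that colon alone. Before merging, however, the authors had extended the annotation with the reads of this experiment, so that membership is not independent of the measured values. Merged units numbered 1619 of the 6324 units counted. Of these, 1067 carried 2 names, 324 carried 3 names and 228 carried 4 or more. The remaining 4705 units carried a single name and served as the comparison.

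RNA polymerase II normally releases its template a short distance past the cleavage and polyadenylation site of a gene. Where genes lie close together on a strand, or where a small RNA sits inside a host gene, the polymerases of one cannot be told from those of the other by position. Global run-on sequencing (GRO-seq) lets engaged polymerases extend their RNA in isolated nuclei and sequences the labelled product, so that its reads mark polymerases in the act of transcription and not the RNA stored in the cell.

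The data were from the livers of female 13-lined ground squirrels (Ictidomys tridecemlineatus), a hibernator whose body cools to near the ambient temperature in torpor and rewarms in short arousals. State was assigned from the date and from body temperature, and 1 liver gave 1 library, so that p-values measure the spread between animals. SA animals (n = 3) were warm and had not begun to hibernate, IBA animals (n = 3) were warm between torpor bouts, Ent animals (n = 3) were cooling on entry into torpor, ET animals (n = 3) were cold in early torpor, and LT animals (n = 2) were cold in late torpor. A further LT library, left out by the authors as of poor quality, was not analysed here. All 3 ET livers came from a season of their own, the LT livers from the earliest and the IBA livers from the latest season. SA and Ent mixed the earliest and latest. Season and state therefore cannot be told apart in comparisons with ET, nor between LT and IBA taken alone.

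Between 3713883 and 8884763 reads per library fell on the 6324 units, and no merged unit averaged under 10 counts per library. Of the 9 hepatocyte markers looked for, 8 had a unit, at 6.70 to 96.9 counts per 1e6 counts (CPM) per kb of unit. Albumin was in the merged unit G10207:ALB and Apoa1 in Apoa1:Sik3. Their summed level was 16023 to 26512 CPM in SA, 15762 to 21456 in IBA, 11492 to 14813 in Ent, 5403 to 9712 in ET and 6710 to 10547 in LT. Of the markers of other liver cells, 2 of 5 for endothelium (84.7 to 139 CPM in ET and 73.8 to 91.2 in LT, against 132 to 201 in SA), 1 of 4 for bile duct (10.9 to 18.1 CPM in ET and 7.07 to 10.1 in LT, against 25.9 to 41.0 in SA) and 1 of 7 for Kupffer cells had a unit. That last marker, Cd68, lay inside a merged unit of 7 names with Eif4a1, so that its level is not its own. No listed gene of stellate cells, T and B cells or erythroid cells had a unit. In whole tissue, fewer cells of a type and less transcription per cell cannot be told apart.

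Merged units held 35.7% of all counts, with 20.6% in units of 2 names, 7.75% in units of 3 names and 7.37% in units of 4 or more. Their median length was 40138 nt, against 36217 nt for single-gene units, and rose from 38248 nt with 2 names to 43660 nt with 3 names and 50310 nt with 4 or more. Across merged units, length and number of names were nevertheless almost unrelated (Spearman's rho 0.07 over 1619 units, a description with no test, since neighbouring units share libraries and annotation). By length, 150 merged units were under 10 kb, 807 were 10 to under 50 kb, 585 were 50 to under 200 kb and 77 were 200 kb or more. Read density differed by class. The median unit had 6.48 CPM per kb below 10 kb and 1.56 CPM per kb at 200 kb or more, and single-gene units of the same classes had 4.68 and 0.997 CPM per kb.

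The merged units lay unevenly on the strands. Of the 1619, 1142 (70.5%) were on the minus strand and 477 on the plus strand, whereas the 4655 single-gene units that form 1 uninterrupted stretch divided into 2348 on the minus strand (50.4%) and 2307 on the plus strand. The minus share was 69.1% with 2 names, 71.6% with 3 names and 75.9% with 4 or more. By length it was 47.3% under 10 kb, 68.9% at 10 to under 50 kb, 77.9% at 50 to under 200 kb and 76.6% at 200 kb or more. Merged units on the minus strand were longer, with a median of 44970 nt against 29576 nt on the plus strand. The cause of this asymmetry was not tested. The share of merged units that changed among the states was 22.2% on the minus and 24.1% on the plus strand. No merged unit overlapped another unit on its own strand, but 294 (18.2%) overlapped a unit on the other strand, compared with 658 (14.1%) of those 4655 single-gene units. Whether reads were assigned to units by strand is not given in the sources used here, so reads of such facing units may not be told apart.

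The 1619 units carried 4195 names. Of these, 2626 were gene symbols, 2332 of which (88.8%) matched a symbol or synonym of the RefSeq gene table of the species, 1103 were numbered annotations with no symbol, and 466 were small RNAs such as snoRNAs, spliceosomal RNAs, microRNAs and tRNAs. Accordingly, 812 units joined at least 2 different symbols, 424 joined 1 symbol with numbered annotations, 229 joined small RNAs with at most 1 symbol, 109 held numbered annotations alone, and 45 repeated 1 symbol. A symbol of 102 merged units was also carried by another unit.

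The most crowded unit joined 12 names over 55759 nt on the plus strand of chromosome Itri9, from 96134919 to 96190677 in the HiC_Itri_2 genome. It covers Serpinc1, which encodes antithrombin, a numbered annotation and 10 snoRNA names. Its level was 1638, 1987 and 3660 CPM in SA, 1688, 2107 and 2409 in IBA, 2096, 2464 and 3436 in Ent, 1978, 2922 and 1964 in ET and 2095 and 1727 in LT. These ranges overlapped throughout, and the states did not differ beyond the spread between animals (edgeR adjusted p = 0.659). Of the 2 units with 10 names, the one that joins LOC101959835 with 9 SNORD names in only 5240 nt averaged 1792 ± 931 CPM over 3 SA libraries and 1006 ± 141 over 2 LT libraries (± SD), again without a difference beyond the spread (edgeR adjusted p = 0.557). The other, from Zdhhc8 to Tango2 and including Ranbp1, the microRNA-processing factor Dgcr8 and MIR185, had 261 ± 11.9 CPM in IBA and 349 ± 0.448 in LT (SD, n = 3 and 2). Its states did not pass 0.001 (edgeR adjusted p = 0.0101).

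The 3 merged units of most counts were the unit of the nuclear long noncoding RNAs MALAT1 and NEAT1, the unit of Fam71d, Gphn and a U6 name, and Cenpu:Acsl1. The MALAT1 and NEAT1 unit, with 9 names over 59256 nt, had 7495, 11047 and 11061 CPM in SA, 4910, 5736 and 7186 in IBA, 9211, 6465 and 6956 in Ent, 5688, 3295 and 4809 in ET and 5383 and 4743 in LT. The 3 SA libraries and 1 Ent library were the 4 highest, and the test among the states did not pass 0.001 (edgeR adjusted p = 0.0157). Gphn, the gene of the scaffold protein gephyrin, and Acsl1, which activates long-chain fatty acids, did not differ among the states beyond the spread either (edgeR adjusted p = 0.109 and 0.771 for their units). The longest merged unit, Pde4d:G2976 (1111651 nt, phosphodiesterase 4D), did differ (edgeR adjusted p = 0.000103). Its level was 317, 315 and 375 CPM in IBA and 165 and 163 CPM in LT, all LT libraries being lower. Next in length was Hdac9 with a 7SK name (849148 nt), which had 80.9 ± 4.90 CPM in IBA and 54.6 ± 3.75 in LT (SD, n = 3 and 2) without passing (edgeR adjusted p = 0.124 among the states).

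At the other end, a pair of tRNA genes formed a unit of 284 nt on Itri1, from 117884558 to 117884841 on the minus strand. It had 5.12, 10.7 and 6.39 CPM in IBA, 22.2, 14.7 and 29.5 in ET and 43.8 and 48.9 in LT. The LT libraries were the highest of all, but the states did not pass 0.001 (edgeR adjusted p = 0.0136). LOC110597336:G23817 (552 nt) likewise had its highest levels in LT, 54.9 and 48.9 CPM against 26.8 to 29.8 in IBA (edgeR adjusted p = 0.00427 among the states).

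Whether the part of transcription that falls in merged units moved with body temperature was examined as the percent of the counts of each library. Over 3 libraries each, SA averaged 35.5% ± 1.35 (± SD), IBA 34.9% ± 1.02, Ent 35.8% ± 1.14 and ET 35.9% ± 0.680, and the 2 LT libraries averaged 36.1% ± 0.103. The 5 cold libraries (ET and LT) averaged 35.98% and the 6 warm ones (SA and IBA) 35.17%, a difference of 0.814 percentage points that was within the spread (two-sided exact permutation test, p = 0.169, Benjamini-Hochberg p = 0.312 over 4 shares). The smallest p this design allows is 0.0043. Units of 2 names held 20.6% of counts on both sides, a difference of -0.0407 points (exact permutation test, p = 0.853). Units of 3 names differed by 0.394 points (exact permutation test, p = 0.0649, adjusted p = 0.260) and units of 4 or more names by 0.461 points (exact permutation test, p = 0.234, adjusted p = 0.312). SA replicate 3 had the highest warm share, 36.9%, and without it the difference for all merged units was 1.17 points (exact permutation test, p = 0.0238). As a percent of all uniquely mapped reads, and not of reads on units, merged units took 20.2% ± 0.817 in the warm (SD, n = 6) and 22.4% ± 0.692 in the cold (SD, n = 5), a difference of 2.20 points (exact permutation test, p = 0.0043). This was a gain of all units together, since single-gene units went from 37.3% ± 1.06 to 39.9% ± 1.30 of uniquely mapped reads (SD, n = 6 and 5), a difference of 2.62 points (exact permutation test, p = 0.0043), a comparison added after the data were seen.

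**Figure D1:**
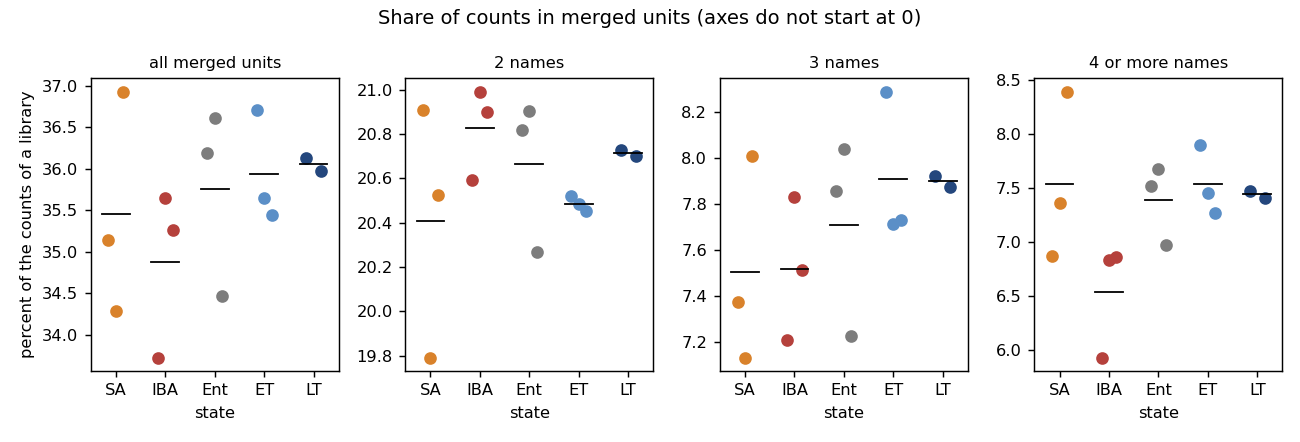
Percent of the counts of each library that fell in merged units (vertical axes, percent, not starting at 0), for all merged units and for units of 2, 3 and 4 or more names, by state (horizontal axis). Points are libraries and bars are state means. The states overlap in the panel of all merged units, where SA alone spans 34.3% to 36.9%.

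Among the 5 states, transcription of 369 of the 1619 merged units (22.8%) differed at an adjusted p of 0.001 (edgeR's quasi-likelihood F test, Benjamini-Hochberg adjustment over all 6324 units), beside 25.5% of all units and 26.4% of single-gene units. At 0.05 there were 945, beside 62.0% of all units and 63.3% of single-gene units. Of the 369, 205 had higher means in both ET and LT than in SA and IBA, 150 had lower means in both, and 14 had neither pattern. These levels are relative to the counts of each library, so higher in the cold does not by itself mean more transcription of a gene. The paper gives the limit that such scaling hides differences in total transcription. It cites earlier work in golden-mantled ground squirrels, where total liver transcription was higher in IBA than in late torpor. Among the 1243 single-gene units that passed, 594 were higher in the cold and 578 lower. Merged units that differed thus leaned to the cold-high side (55.6%) where single-gene units were nearly even (47.8%). The lean was not particular to merged units at 10 to under 50 kb. There, 58.7% of the merged and 56.8% of the single-gene units that passed were higher in the cold. The difference between these shares was not tested. Annotation was extended at 3′ ends with these reads before merging, and the paper reports longer extension in torpor. Membership and the lean are therefore not independent, here and by number of names below, and how far one follows from the other was not tested. The ET season and the low body temperature cannot be told apart for ET, and LT and IBA differ in season too.

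By number of names, the share of changed units that were higher in the cold was 52.8% with 2 names, 54.3% with 3 names and 73.8% with 4 or more, without a test of the difference. Of the 1067 units of 2 names 246 passed (23.1%), 130 of them higher in the cold and 108 lower. Of the 324 units of 3 names 81 passed (25.0%), 44 higher and 32 lower. Of the 228 units of 4 or more names 42 passed (18.4%), 31 higher and 10 lower. Within this last class, 15 of the 16 units of 50 to under 200 kb that passed were higher in the cold.

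Length divided the units differently. Most of the short merged units that passed were lower in the cold. Of the 150 under 10 kb 40 passed (26.7%), 30 of them lower in ET and LT and 8 higher. Of the 807 at 10 to under 50 kb 206 passed (25.5%), 121 higher and 77 lower, and of the 585 at 50 to under 200 kb 112 passed (19.1%), 73 higher and 37 lower. Only 11 of the 77 units of 200 kb or more passed (14.3%), 3 higher and 6 lower. Single-gene units shared the excess of falls below 10 kb, where 129 of 378 passed (34.1%) with 36 higher and 69 lower, and the fall of the share that passed with length, down to 25 of 271 (9.23%) at 200 kb or more. At 10 to under 50 kb single-gene units leaned to the cold-high side as merged units did, with 461 higher and 322 lower. They differed at 50 to under 200 kb, where 96 single-gene units were higher in the cold and 166 lower. The test of that difference was not made.

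**Figure D2:**
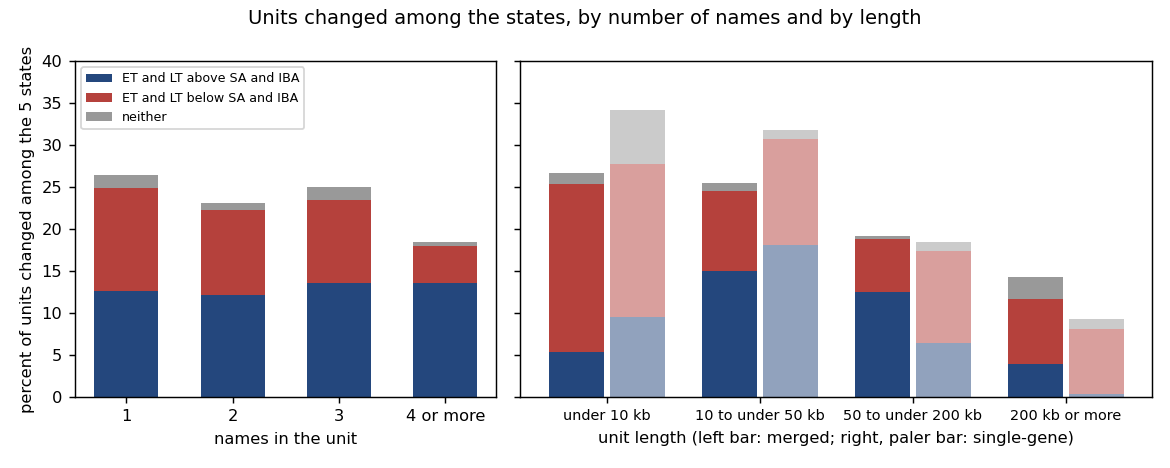
Percent of units whose level differed among the 5 states at an adjusted p of 0.001 (vertical axis), by number of names (left panel, where 1 stands for single-gene units) and by length (right panel, merged units beside paler bars for single-gene units). Blue parts had both ET and LT above SA and IBA, red parts both below, grey parts neither. The blue part makes up 31 of 42 units with 4 or more names and 8 of 40 merged units under 10 kb.

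The unit with the smallest p among merged units of 2 names was Ints3:Slc27a3, of 47339 nt on the plus strand of Itri11. Ints3 is a subunit of the Integrator complex, which cleaves nascent RNA, and Slc27a3 belongs to the fatty acid transport proteins. The unit had 152, 142 and 136 CPM in SA, 170, 162 and 145 in IBA, 96.1, 70.7 and 68.0 in Ent, 26.4, 34.0 and 31.1 in ET and 34.6 and 37.4 in LT. Warm, entering and torpid animals formed 3 separate ranges. From LT to IBA its log2 fold change was 2.14 (standard error, SE, 0.18, edgeR adjusted p = 9.07e-06).

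Among units of 4 or more names the smallest p belonged to the unit of NCL with a SNORA75 and 2 SNORD20 names (27493 nt, minus strand of Itri6). NCL encodes nucleolin, which acts in ribosome assembly. Its level was 133, 135 and 133 CPM in SA, 108, 126 and 121 in IBA, 187, 202 and 183 in Ent, 325, 290 and 268 in ET and 360 and 337 in LT. Each step from IBA through Ent and ET to LT was without overlap. From LT to IBA the log2 fold change was -1.56 (SE 0.12, adjusted p = 6.8e-06 by edgeR). At 200 kb or more the smallest p was that of G15276:G15279:LOC110598725, with 52.0 to 66.5 CPM in IBA, 6.09 to 9.13 in ET and 9.13 to 10.7 in LT (edgeR adjusted p = 2.11e-05 among the states).

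From summer to hibernation, SA to IBA, no merged unit passed 0.001 by edgeR, beside 0.0158% of all units (0.0213% of single-gene units) for rises and 0% for falls. At an unadjusted p of 0.05 there were 290 merged units, and DESeq2 called 46 at an adjusted p of 0.001. Counts of these kinds, here and below, are given without the share of all units and cannot be set against it. At an adjusted p of 0.05, 23 merged units were higher in IBA and 45 lower, where rises and falls made up 2.37% and 2.85% of all units and 2.70% and 2.87% of single-gene units.

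The largest rises at that level were LOC110598479:UBE2F, LOC110598346:G2492 and G33267:Abca9. UBE2F encodes an enzyme that attaches the ubiquitin-like protein NEDD8. Its unit had 8.92, 3.30 and 1.19 CPM in SA, 60.2, 56.9 and 67.7 in IBA, and 25.2 to 34.0 CPM in LT. Between SA and IBA the log2 fold change was 3.88 (SE 0.60, adjusted p = 0.00389 by edgeR). Abca9, of a family of membrane transporters, had 7.60 to 17.4 CPM in SA and 35.1 to 64.6 CPM in every hibernating animal, and its log2 fold change was 1.84 (SE 0.28, adjusted p = 0.00381 by edgeR).

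LOC110598346:G2492 had 10.1, 18.7 and 11.9 CPM in SA, 109, 76.5 and 118 in IBA, 29.0, 23.3 and 22.2 in Ent, 8.54, 26.3 and 17.7 in ET and 6.65 and 11.5 in LT. It stood out in IBA alone, above every other library. It rose from SA to IBA by a log2 fold change of 2.91 (SE 0.38, adjusted p = 0.00265 by edgeR) and fell by 2.02 on the log2 scale from IBA to Ent (SE 0.36, adjusted p = 0.00466 by edgeR). On the minus strand of Itri1 it faces the plus-strand unit of Hspa9 and Etf1 over 14112 nt. That unit moved the other way, with 231 to 280 CPM in IBA, 558 to 759 in ET and 535 to 717 in LT.

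The largest falls from SA to IBA were of 3 units that carry numbered annotations. G34287:G34285 had 328, 327 and 233 CPM in SA and 5.68, 8.57 and 3.67 in IBA, a log2 fold change of -5.64 (SE 0.82, adjusted p = 0.00299 by edgeR), and stayed at 2.06 to 66.3 CPM in the other 8 libraries. The unit of G17377 with 2 names of the acetoacetyl-CoA synthetase gene Aacs, 1 of them a pseudogene name, had 213, 50.9 and 18.7 CPM in SA and 1.62 to 5.29 CPM in all other libraries (log2 fold change -4.50, SE 0.80, adjusted p = 0.00712 by edgeR). G39:G41:G54, a unit of 336932 nt, had 97.9, 165 and 697 CPM in SA and 20.3 to 32.4 in IBA (log2 fold change -3.62, SE 0.69, adjusted p = 0.00981 by edgeR). In the last pair the SA animals differed from each other by several fold. Both lost the call at 0.05 in fits of SA and IBA alone, with edgeR adjusted p of 0.0639 and 0.0605, and G39:G41:G54 also without IBA replicate 3 (adjusted p = 0.0575).

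On entry into torpor, IBA to Ent, again no merged unit passed 0.001 by edgeR (0.0158% of all units and 0.0213% of single-gene units for rises and for falls), with 486 at an unadjusted p of 0.05 and 118 by DESeq2. At an adjusted p of 0.05, 151 merged units were higher in Ent and 82 lower, beside 8.76% and 7.34% of all units. Rises outnumbered falls in each class of names, 95 to 59 with 2 names, 32 to 18 with 3 names and 24 to 5 with 4 or more. Among single-gene units 403 (8.57%) rose and 382 (8.12%) fell.

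The largest rise was that of the metallothionein unit MT1G_like:MT2A_like (10970 nt on the minus strand of Itri16). Metallothioneins bind zinc and copper and are near-identical copies of each other, so that uniquely aligned reads may be divided among them with error. The unit had 687, 308 and 932 CPM in SA, 186, 269 and 465 in IBA, 1600, 1062 and 2318 in Ent, 74.2, 90.9 and 223 in ET and 83.1 and 46.5 in LT. Ent lay above every other library. From IBA to Ent the log2 fold change was 2.43 (SE 0.53, adjusted p = 0.0104 by edgeR). From Ent to ET the change was -3.68 (SE 0.56, adjusted p = 0.000932 by edgeR). Without IBA replicate 1 the rise had an edgeR adjusted p of 0.0512.

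Tssk2:Tssk1b:G17432, named for kinases best known from the testis, rose from 5.97, 7.32 and 6.71 CPM in IBA to 25.5, 39.8 and 32.02 in Ent. It was at 53.8 to 116 CPM in ET and at 70.0 and 98.7 in LT, so that IBA, Ent and the cold states formed 3 separate ranges. The log2 fold change from IBA to Ent was 2.27 (SE 0.40, adjusted p = 0.00437 by edgeR). G27313:G27314:G27312 rose from 79.8 to 113 CPM in IBA to 278 to 607 in Ent (log2 fold change 2.17, SE 0.57, adjusted p = 0.0229 by edgeR), a call lost without any 1 of the IBA libraries and without Ent replicate 1 or 2 (adjusted p 0.0544 to 0.0784), and with season as a term (adjusted p = 0.111).

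The largest falls from IBA to Ent were of G4250:G4257:Serpina7, LOC110598346:G2492 (given above) and Rtn4rl1:G34253. Serpina7 encodes thyroxine-binding globulin, a thyroid hormone carrier of the blood. Its merged unit (Itri10, 78985507 to 79072273, minus strand, 86767 nt) had 269, 128 and 190 CPM in SA, 736, 456 and 547 in IBA, 120, 80.4 and 125 in Ent, 40.8, 44.0 and 30.2 in ET and 29.9 and 26.95 in LT. IBA was above all other states, and ET and LT were below them all. The unit rose from SA to IBA by a log2 fold change of 1.57 (SE 0.27, adjusted p = 0.00623 by edgeR) and fell by 2.42 on the log2 scale from IBA to Ent (SE 0.28, adjusted p = 0.00168 by edgeR).

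A separate unit named Serpina7 alone lies on the same strand at higher coordinates, 9703 nt away and thus upstream. Its mean ± SD was 160 ± 62.6 CPM in 3 IBA libraries, 30.7 ± 18.1 in 3 Ent libraries and 10.9 ± 3.89 in 2 LT libraries, with log2 fold changes of -2.38 from IBA to Ent (SE 0.58, adjusted p = 0.0177 by edgeR) and 3.88 from LT to IBA (SE 0.75, adjusted p = 0.00113 by edgeR). The merged and the single unit therefore moved in the same direction at both steps, though the call from LT to IBA at 0.001 held in the merged unit alone. Rtn4rl1, a receptor of the Nogo family, had 46.3, 59.8 and 32.7 CPM in IBA and 11.6, 9.37 and 13.5 in Ent in its unit (log2 fold change -2.005, SE 0.43, adjusted p = 0.0101 by edgeR).

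**Figure D3:**
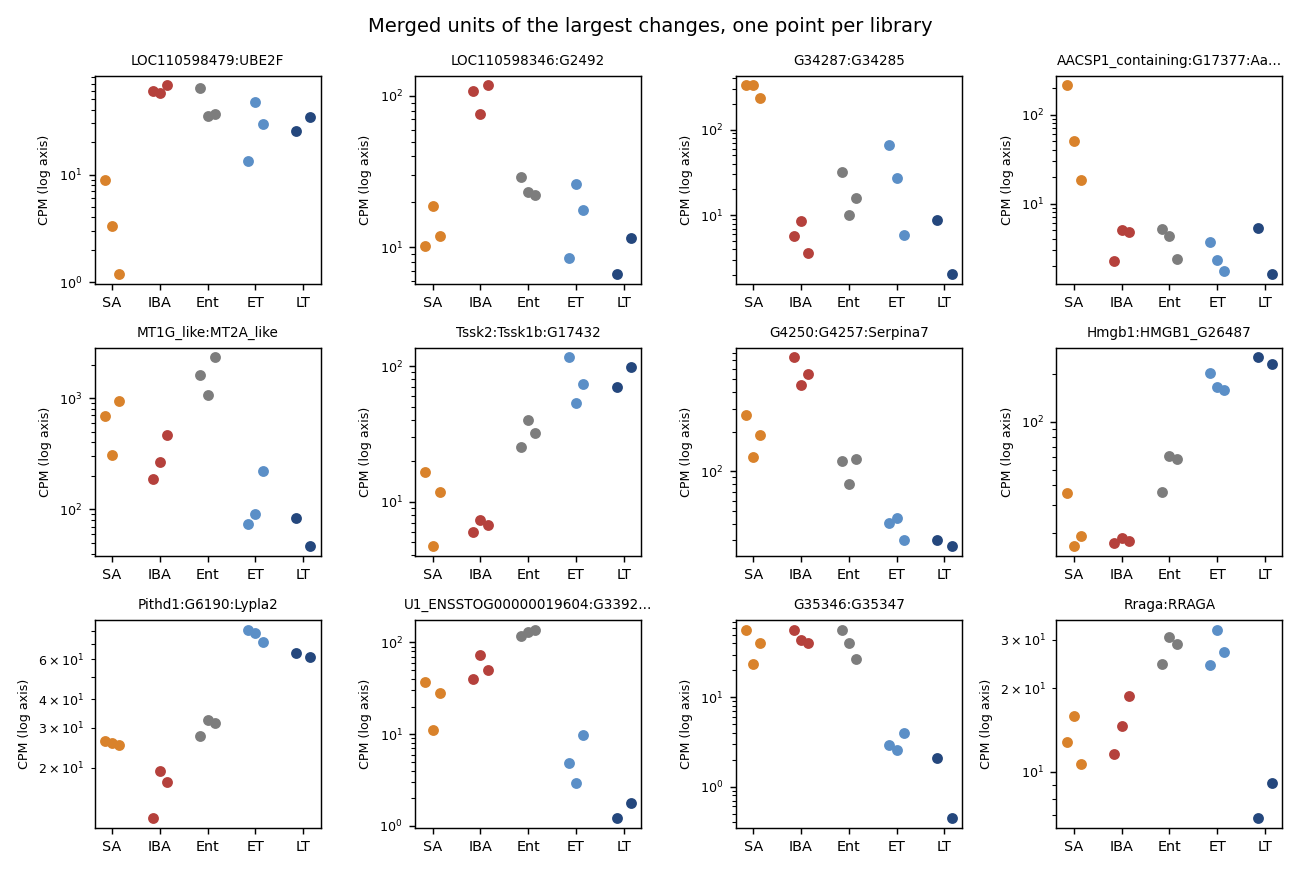
CPM of the merged units with the largest rises and falls of each transition (vertical axes, CPM on a log scale), by state (horizontal axes), 1 point per library. The metallothionein unit peaks in Ent at 1062 to 2318 CPM, the G2492 unit in IBA at 76.5 to 118 CPM, and the Hmgb1 unit in LT at 233 and 255 CPM.

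From Ent to ET, as the animals finished cooling, 11 merged units rose and 21 fell at 0.001, beside 1.01% and 1.20% of all units and 1.13% and 1.17% of single-gene units. At an adjusted p of 0.05, 245 rose and 198 fell, beside 15.3% and 13.4% of all units and 15.4% and 13.8% of single-gene units. The count at 0.001 depended on single libraries, with 0 units left without Ent replicate 1 or 2 or without ET replicate 1 or 2, 3 without ET replicate 3 and 10 to 17 without Ent replicate 3 or any 1 IBA or LT library. It was 0 in a fit of Ent and ET alone, 0 with season in the model and 61 (43 higher, 18 lower) when libraries were scaled to uniquely mapped reads, a scaling that raised the median of all units by 0.12 on the log2 scale at this step. Most short units that passed were lower, in both kinds of unit. Under 10 kb, 6 merged units rose and 40 fell at 0.05 (26.7% lower), with a median log2 fold change of -0.44 against 0.01 over all merged units, and 50 single-gene units rose and 110 fell (29.1% lower), with a median of -0.37.

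The rises were led by Hmgb1:HMGB1_G26487, which encodes an abundant chromatin protein. It had 35.7, 16.5 and 19.1 CPM in SA, 17.3, 18.6 and 17.7 in IBA, 36.2, 60.6 and 58.9 in Ent, 204, 167 and 158 in ET and 255 and 233 in LT. The levels climbed at each step from IBA to LT with no overlap. From Ent to ET the log2 fold change was 1.77 (SE 0.26, adjusted p = 0.000821 by edgeR).

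Pithd1:G6190:Lypla2, the latter an enzyme that removes fatty acids from proteins, had 27.6, 32.5 and 31.3 CPM in Ent and 81.1, 78.0 and 71.2 in ET (log2 fold change 1.33, SE 0.16, adjusted p = 0.000322 by edgeR). Nrbp1:Krtcap3 had 53.9, 56.5 and 57.2 CPM in Ent and 151, 114 and 125 in ET (log2 fold change 1.22, SE 0.15, adjusted p = 0.000382 by edgeR). Both were lowest in IBA, and in LT they were at 63.6 and 61.3 CPM for the first and 136 and 137 CPM for the second.

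The falls were led by short units. A short unit (8569 nt, Itri7, minus strand) joins G33922 with 2 genes of U1, the small nuclear RNA that recognizes 5′ splice sites. It had 37.1, 11.002 and 27.9 CPM in SA, 39.5, 73.4 and 49.5 in IBA, 116, 130 and 138 in Ent, 4.86, 2.95 and 9.89 in ET and 1.21 and 1.77 in LT. Ent was the highest state and the cold libraries were the lowest, with 8 and 12 counts in LT. From Ent to ET the log2 fold change was -4.42 (SE 0.47, adjusted p = 0.000272 by edgeR). U1 genes exist in many near-identical copies, so reads of this unit are those that aligned to it uniquely.

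G35346:G35347 (7615 nt, plus strand of Itri7) had 23.4 to 57.1 CPM in the 9 SA, IBA and Ent libraries and 2.95, 2.55 and 3.99 CPM in ET. Its log2 fold change from Ent to ET was -3.69 (SE 0.44, adjusted p = 0.000317 by edgeR). The unit had 14 and 3 counts in LT. The calls of all 6 units named for this step were lost at 0.001 with season as a term, which sets the earliest season against the later ones and so leaves the season of ET uncorrected (edgeR adjusted p 0.00194 to 0.00349), and in the fit of Ent and ET alone (0.00363 to 0.00525). Their direction held in every alternative run.

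Between early and late torpor, ET to LT, no merged unit passed 0.001 by edgeR (0% of all units in either direction). There were 114 merged units at an unadjusted p of 0.05 and 4 called by DESeq2, all lower in LT. At an adjusted p of 0.05 there was 1, lower in LT, beside 0.269% of all units (0.340% of single-gene units) that were lower and 0% that were higher. The median log2 fold change of merged units was -0.00, with -0.13 for units under 10 kb and 0.04 for units of 200 kb or more.

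That unit, Rraga:RRAGA (4281 nt, plus strand of Itri3, from 153323184 to 153327464), carries the name of the RagA GTPase, which relays amino acid supply to the kinase complex mTORC1. It had 12.8, 16.0 and 10.7 CPM in SA, 11.7, 14.6 and 18.8 in IBA, 24.4, 30.7 and 28.9 in Ent, 24.3, 32.6 and 27.1 in ET and 6.80 and 9.13 in LT. Ent and ET formed an upper range, SA and IBA a middle one and LT the lowest. From ET to LT the log2 fold change was -1.81 (SE 0.27, adjusted p = 0.0212 by edgeR). Without LT replicate 1 the edgeR adjusted p was 0.627, and without ET replicate 2 or 3 it was 0.0674 or 0.0522. It was 0.214 with season as a term and 0.327 in the fit of ET and LT alone.

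Arousal, the step from LT to IBA, had the most changed units of the 5 steps. At 0.001, 104 merged units rose into IBA and 168 fell, beside 7.73% and 9.69% of all units and 8.18% and 9.46% of single-gene units. At 0.05, 331 rose and 434 fell, beside 25.0% and 24.8% of all units, whereas 1252 single-gene units (26.6%) rose and 1134 (24.1%) fell. The median log2 fold change was -0.06 over merged units and 0.09 over single-gene units. With libraries scaled to uniquely mapped reads, all units shifted down by 0.18 on the log2 scale, the medians were -0.25 and -0.10, and 79 merged units rose and 250 fell at 0.001. With season as a term 51 rose and 40 fell, so that the excess of falls was not kept.

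Rises on arousal were few in the crowded units. At 0.001, 5 units of 4 or more names rose (2.19% of their class) and 24 fell (10.5%). Of 3 names 23 rose (7.10%) and 39 fell (12.04%), and of 2 names 76 rose (7.12%) and 105 fell (9.84%). Beside 7.73% and 9.69% of all units, the crowded units thus stood apart in rises and not in falls. The difference between classes was not tested, and counts with season as a term are not given here by number of names. In the shortest class 23 rose and 3 fell, and with uniquely mapped reads as the base 18 rose and 9 fell. Single-gene units of that length also rose more often than they fell, with 60 rises and 21 falls (15.9% rose, against 15.3% of the merged units), or 45 and 30 with uniquely mapped reads as the base. The count of 272 changed units was 62 without LT replicate 1 and 107 without LT replicate 3, fits in which the lone LT library is assumed to vary like the other groups, and 147 to 160 without an IBA library.

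**Figure D4:**
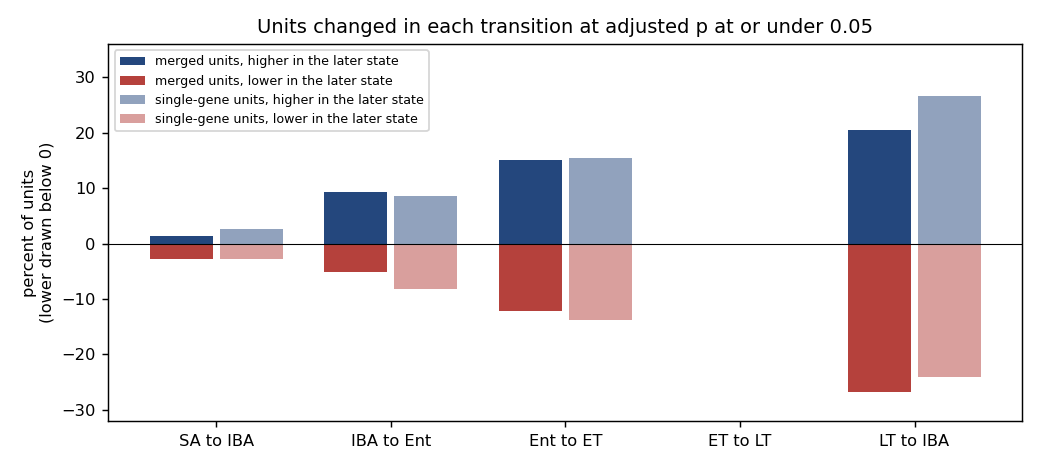
Percent of merged units (dark bars) and single-gene units (paler bars) that changed at an adjusted p of 0.05 in each sequential transition (horizontal axis). Rises into the later state are drawn upward and falls downward in percent of units. From LT to IBA 331 merged units rose and 434 fell, and from ET to LT 1 merged unit fell.

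The largest rises from LT to IBA were of G35346:G35347, the U1 unit and G3243:G3238. Their log2 fold changes were 5.18 (SE 0.59, adjusted p = 3.35e-05 by edgeR), 5.16 (SE 0.63, adjusted p = 5.22e-05 by edgeR) and 4.79 (SE 0.81, adjusted p = 0.000446 by edgeR). G3243:G3238, also a short unit of 5593 nt, had 130, 70.2 and 58.0 CPM in IBA, 3.83, 5.11 and 3.83 in ET and 4.38 and 1.77 in LT. In all 3 units every torpid library was below every IBA library. The calls of the last 2 were lost at 0.001 without either LT library, with adjusted p of 0.00187 and 0.00117 for the U1 unit and 0.00489 and 0.00929 for G3243:G3238, and that of G3243:G3238 also without IBA replicate 1 or 2 (0.00137 and 0.00109).

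The largest falls were of Hmgb1, with a log2 fold change of -3.77 (SE 0.30, adjusted p = 6.8e-06 by edgeR), of the Tssk unit (-3.65, SE 0.43, adjusted p = 3.93e-05 by edgeR) and of H3F3B:G33144:Galk1. The latter joins a gene of the replacement histone H3.3 with galactokinase. It had 105, 62.4 and 80.7 CPM in SA, 65.9, 87.0 and 65.8 in IBA, 165, 246 and 281 in Ent, 515, 391 and 524 in ET and 633 and 650 in LT. Warm animals were lowest and LT animals highest. The log2 fold change from LT to IBA was -3.14 (SE 0.25, adjusted p = 6.8e-06 by edgeR). The call of the Tssk unit had an adjusted p of 0.00137 with season as a term, while those of Hmgb1 and H3F3B were kept in every alternative.

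Gene lists of liver function and gene expression were matched to the names in merged units. A unit counts as a member by any of its names, its reads cannot be divided among its genes, and a unit may belong to several lists. The lists were described by counts with no test, beside the 22.8% of all merged units that differed among the states and the median log2 fold change of -0.06 from LT to IBA over all merged units (-0.25 with libraries scaled to uniquely mapped reads). From LT to IBA, 20.4% of all merged units rose and 26.8% fell at 0.05, beside 25.0% and 24.8% of all units. At 0.001, 6.42% of all merged units rose and 10.4% fell.

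Plasma proteins are made by hepatocytes for export. Of 32 merged units with such a gene, 8 differed among the states (25.0%), all of them lower in the cold. The median log2 fold change from LT to IBA was 0.77 (0.58 with the other scaling), and 17 rose (53.1%) and 0 fell at 0.05. Besides Serpina7, they included C4BPA_like:C4bpb:Pfkfb2, with genes of the complement inhibitor C4b-binding protein. It had 219, 267 and 232 CPM in SA, 483, 361 and 327 in IBA, 148, 141 and 237 in Ent, 69.4, 57.2 and 69.7 in ET and 63.3 and 53.6 in LT, the torpid libraries being all below the others. It rose from LT to IBA by a log2 fold change of 2.74 (SE 0.26, adjusted p = 1.33e-05 by edgeR). TF:Srprb (transferrin), Gc:RABL2A (vitamin D-binding protein) and Hrg:Fetub:Ahsg (fetuins) had log2 fold changes of 2.68, 2.51 and 2.39.

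Albumin, in G10207:ALB, did not pass 0.001 (edgeR adjusted p = 0.0117 among the states), and its mean ± SD was 4381 ± 707 CPM over 3 IBA libraries, 1283 ± 753 over 3 ET libraries and 1457 ± 677 over 2 LT libraries. The summed level of the hepatocyte markers, given above, fell with these units, and 2 of the 8 markers lie in them. The markers did not all fall alike. Cps1 fell most in CPM, from a mean of 7452 in SA to 1046 in LT, and was already at 2906 in IBA. Tat fell most in proportion, from a mean of 2556 CPM in SA to 165 in LT. Apoa1:Sik3, whose level is shared with Sik3, had 1404 and 1385 CPM. Apob alone was higher in LT (3781 CPM) than in SA (3228), though below IBA (4459). The part of the summed level in the result was not tested.

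Among drug metabolism genes, 11 of 41 units differed among the states (26.8%), all 11 lower in the cold. From LT to IBA, however, 18 rose (43.9%) and 7 fell (17.1%) at 0.05, and 6 rose (14.6%) and 2 fell (4.88%) at 0.001. The median log2 fold change from LT to IBA was 0.62 (0.43 with the other scaling). FMO1_gene3729:Fmo2, of flavin monooxygenases, had 466, 301 and 351 CPM in SA, 279, 347 and 305 in IBA, 224, 157 and 148 in Ent, 67.7, 73.5 and 83.1 in ET and 73.8 and 53.5 in LT. Torpid animals were lowest, Ent animals lay between, and SA and IBA overlapped. Its log2 fold change from LT to IBA was 2.29 (SE 0.25, adjusted p = 2.42e-05 by edgeR). The unit of GSTT1_like with 3 numbered loci, of a glutathione transferase, was highest in SA (351 to 660 CPM) and lowest in LT (127 and 130 CPM).

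Several of these units are clusters of close copies, among them UGT2B genes (6 names), CES2 genes (4 names), CYP4A genes and GSTA genes, with log2 fold changes from LT to IBA of 1.90, 2.39, 1.14 and 1.93. Reads of such copies may be split or lost with unique alignment. A further member, the unit of Ifrd2, Nat6, hyaluronidases and Rassf1, is in the list by Nat6, an acetyltransferase that is not an enzyme of drug metabolism.

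Genes of amino acid metabolism had 15 units, of which 2 differed (13.3%) in opposite directions. Cdo1:Atg12, of cysteine dioxygenase and an autophagy gene, had 456, 442 and 592 CPM in SA, 360, 382 and 510 in Ent, 176, 131 and 150 in ET and 178 and 124 in LT. The Ent libraries overlapped those of SA, and the unit changed from Ent to ET by -1.46 on the log2 scale (SE 0.21, adjusted p = 0.000803 by edgeR). Smc1a:Hsd17b10 was instead higher in the cold, with 168 to 177 CPM in SA, 198 to 212 in IBA and 278 and 308 in LT. The unit of Shmt2, Nxph4 and Lrp1, where 3 genes follow each other on the minus strand of Itri4, did not differ (edgeR adjusted p = 0.258), at 875 to 1076 CPM in SA and 906 to 1302 in ET. The paper, counting the genes apart, shows a rise of Nxph4 in torpor downstream of Lrp1. A count over all 3 genes is another measure and cannot show a rise of 1 of them.

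For fatty acid and cholesterol metabolism, 4 of 23 units differed (17.4%), all higher in the cold. Their partners in the same unit are genes of other kinds. G19311:Hnrnpm:March2:Rab11b:Angptl4 joins a splicing factor with Angptl4, an inhibitor of lipoprotein lipase. It had 471, 462 and 521 CPM in IBA, 623, 644 and 630 in Ent, 1053, 838 and 945 in ET and 1068 and 1046 in LT, rising over the steps with no overlap until ET (log2 fold change from LT to IBA -1.13, SE 0.13, adjusted p = 4.46e-05 by edgeR). With season as a term this unit no longer passed 0.001 (log2 fold change -1.14, edgeR adjusted p = 0.00122). Elovl1:Med8, of a fatty acid elongase and a Mediator subunit, had 47.7 to 58.9 CPM in IBA, 124 to 145 in Ent and 161 to 213 in ET (log2 fold change from IBA to Ent 1.41, SE 0.20, adjusted p = 0.00317 by edgeR). The others join Fdft1 with Gata4 and Pnpla2 with Rplp2.

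**Figure D5:**
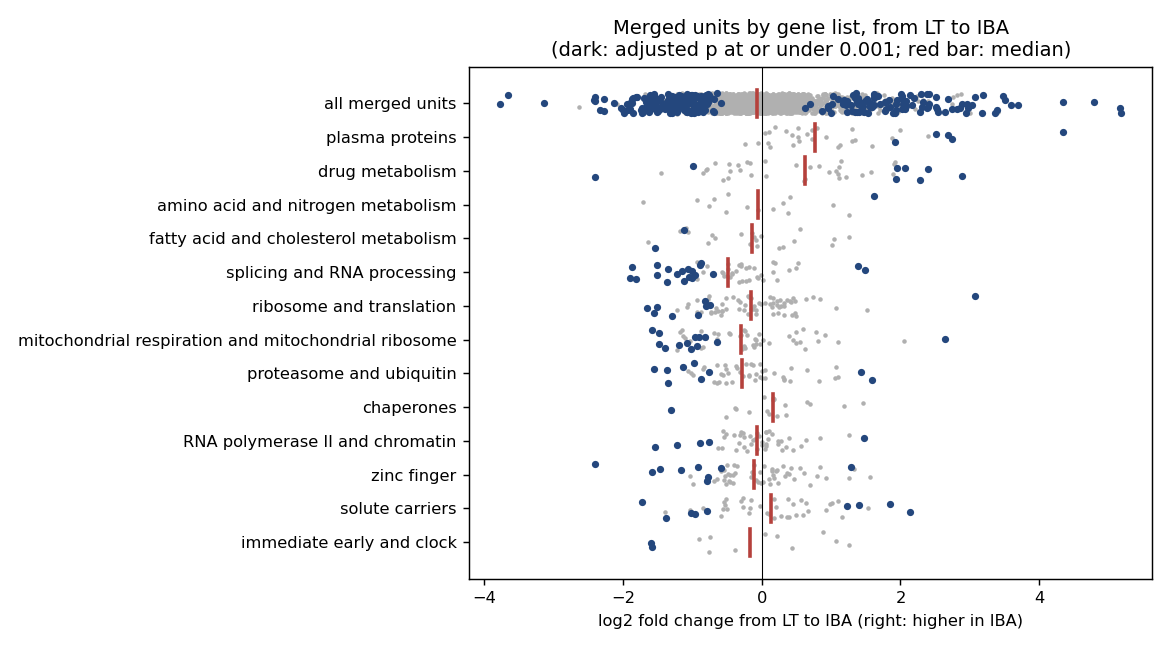
Log2 fold change from LT to IBA of each merged unit (horizontal axis, right for higher in IBA), by gene list (vertical axis). Dark points passed an adjusted p of 0.001, grey points did not, and red bars mark medians. The median is 0.77 for plasma proteins, -0.48 for splicing and RNA processing and -0.06 for all merged units.

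Splicing and RNA processing had the highest share of all lists. Of 55 units 22 differed among the states (40%), 20 of them higher in the cold and 2 lower. The median log2 fold change from LT to IBA was -0.48 (-0.67 with the other scaling), and at 0.05 2 units rose (3.64%) and 28 fell (50.9%). Lgals4:Ech1:Hnrnpl:G12203, with the splicing regulator Hnrnpl, had 244, 241 and 276 CPM in SA, 163, 198 and 186 in IBA, 328, 416 and 389 in Ent, 664, 526 and 558 in ET and 515 and 529 in LT. IBA was below SA, SA below Ent, and Ent below both torpid states, with no overlap. From IBA to Ent its log2 fold change was 1.05 (SE 0.14, adjusted p = 0.00239 by edgeR).

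Pnn:G27818, of the exon junction protein pinin, had 77.8, 66.6 and 79.5 CPM in SA, 56.3, 67.9 and 66.7 in IBA, 110, 142 and 162 in Ent, 227, 243 and 177 in ET and 243 and 233 in LT, so that the torpid libraries were above all others. Its log2 fold change from LT to IBA was -1.90 (SE 0.18, adjusted p = 1.41e-05 by edgeR). Units of Nono, Rbmx, Matr3, Srsf1 and Srsf2 were likewise higher in the cold, with log2 fold changes from LT to IBA of -1.15, -1.22, -1.06, -0.88 and -0.79. Of the 2 that were lower, Rbm23:Prmt5 had a log2 fold change of 1.39.

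Among ribosome and translation genes 12 of 75 units differed (16.0%), 10 higher in the cold and 2 lower. Next to the NCL unit, those higher included the units of Eif4h, Eif5, Rpl14, Rpl21, Rpl39 and Rplp2. The strongest fall in the cold was that of DHRS7:EIF4B, a unit that also covers a dehydrogenase, with 172, 371 and 227 CPM in SA, 194, 181 and 243 in IBA, 139, 88.7 and 74.4 in Ent, 22.7, 34.2 and 29.2 in ET and 24.6 and 24.3 in LT. Its torpid libraries were all below the others (log2 fold change from LT to IBA 3.07, SE 0.36, adjusted p = 4.27e-05 by edgeR). With season as a term this unit no longer passed 0.001 (log2 fold change 2.98, edgeR adjusted p = 0.00105). Rps18:B3galt4 was lower too (1.51).

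Mitochondrial genes of respiration and of the mitochondrial ribosome had 59 units, of which 16 differed (27.1%), 14 higher and 2 lower in the cold. The median log2 fold change from LT to IBA was -0.30 (-0.49 with the other scaling). Fam219b:COX5A, with a subunit of cytochrome oxidase, had 170, 139 and 144 CPM in SA, 134, 130 and 148 in IBA, 230, 222 and 237 in Ent, 357, 424 and 398 in ET and 347 and 373 in LT. Ent lay between the warm and the torpid libraries (log2 fold change from Ent to ET 0.77, SE 0.12, adjusted p = 0.00088 by edgeR). Mrps24:URGCP had 158 to 160 CPM in IBA and 279 and 281 in LT. The 2 that were lower were PPIAP46_like:Ndufaf6 and G1863:Leap2:UQCRQ, where Ndufaf6 is an assembly factor and Leap2 a liver peptide hormone.

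Proteasome and ubiquitin genes had 11 of 54 units that differed (20.4%), 8 higher and 3 lower in the cold. Csf3:Psmd3, with a subunit of the proteasome lid, had 88.6 to 100 CPM in IBA, 124 to 154 in Ent, 173 to 183 in ET and 201 and 211 in LT, all in ascending order with no overlap (log2 fold change from LT to IBA -1.14, SE 0.12, adjusted p = 2.1e-05 by edgeR). G36508:TRIM26_containing had 140 to 145 CPM in IBA and 359 and 372 in LT. The lower units held Psmb10 and Psme2, of the immunoproteasome and its activator, and Usp21.

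Chaperones had 3 of 18 units that differed (16.7%). Fermt3:Stip1, with the Hsp70 and Hsp90 co-chaperone Stip1, and the unit of Fkbp4 were lower in the cold, and the unit of Hspa9, the mitochondrial Hsp70, with the translation release factor Etf1 was higher. Fermt3:Stip1 had 53.5 to 101 CPM in SA, 41.2 to 60.0 in IBA, 14.1 to 21.6 in Ent, 17.9 to 23.4 in ET and 18.1 and 18.4 in LT. Its fall took place on entry (log2 fold change from IBA to Ent -1.47, SE 0.25, adjusted p = 0.0039 by edgeR). The median of the list from LT to IBA was 0.16 and turned to -0.03 when libraries were scaled to uniquely mapped reads.

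RNA polymerase II and chromatin genes had 9 of 48 units that differed (18.8%), 5 higher, 3 lower and 1 neither. Kmt2a:Ttc36:Tmem25, with a histone H3 methyltransferase, had 327 to 372 CPM in IBA, 202 to 280 in Ent, 138 to 161 in ET and 120 and 130 in LT. Zinc finger genes had 12 of 63 (19.0%), 8 higher and 3 lower. Znf250:G30483 was higher in the cold (51.2 to 61.1 CPM in IBA, 112 and 134 in LT), whereas the unit of ZNF566 and a U2 name peaked in Ent at 122 to 150 CPM, above 79.6 to 87.8 in IBA and 69.1 to 72.9 in ET (log2 fold change from Ent to ET -0.93, SE 0.13, adjusted p = 0.000734 by edgeR).

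Solute carriers had 10 of 46 units that differed (21.7%), 5 higher, 4 lower and 1 neither, and their median from LT to IBA was 0.14, turning to -0.05 with the other scaling. G37029:Slc35b2:G37032, with a transporter of activated sulfate, had 61.1 to 74.2 CPM in IBA, 47.6 to 64.2 in Ent and 30.8 to 33.4 in ET. Immediate early and clock genes had 3 of 12 (25.0%). Ciart:Mrps21, of a clock repressor and a mitochondrial ribosomal protein, and the unit of Per1, Vamp2 and 2 tRNA names were higher in the cold. Med29:Zfp36, with the mRNA decay factor tristetraprolin, was lower, at 139 to 202 CPM in IBA, 48.3 to 90.6 in ET and 60.2 and 73.9 in LT.

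Small RNAs gave names to many units, but their reads are those of the whole unit and not of the processed RNA. Of 133 units with a snoRNA name 18 differed among the states (13.5%), 15 higher and 3 lower in the cold. Those higher were mostly hosts named for other functions, such as Tomm20:SNORA14 (log2 fold change from LT to IBA -1.46) and SNORD61:Rbmx (-1.22). Those lower were the unit of LOC110598437 with SNORA76, SNORA50 and SNORND104 (2.41) and the units of Rab3gap2 (0.38) and Lipg (1.24). The units of Rab3gap2 and Lipg were highest in SA and already lower in IBA. Rab3gap2 averaged 293 CPM in SA, 182 in IBA, 148 in Ent, 167 in ET and 139 in LT. Lipg averaged 504 CPM in SA, 143 in IBA, 158 in Ent, 102 in ET and 60.6 in LT. From LT to IBA their edgeR adjusted p was 0.0311 and 0.0213. The median over the 133 units was -0.13.

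Of 41 units with a microRNA name 12 differed (29.3%), 3 higher in the cold, 7 lower and 2 neither. MIR122:MIR122_containing, the primary transcript of miR-122, the microRNA best known as specific to liver, had 1293, 2337 and 1352 CPM in SA, 2913, 3911 and 3536 in IBA, 3384, 3355 and 3554 in Ent, 667, 756 and 927 in ET and 262 and 345 in LT. IBA and Ent overlapped at the highest level, SA lay below them, and ET and LT formed the 2 lowest ranges. From Ent to ET the change was -2.13 on the log2 scale (SE 0.25, adjusted p = 0.000283 by edgeR) and from LT to IBA it rose by a log2 fold change of 3.51 (SE 0.31, adjusted p = 9.07e-06 by edgeR). The further fall from ET to LT, -1.37, did not pass 0.05 (SE 0.28, adjusted p = 0.0568 by edgeR).

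Ctdspl:MIR26A1_like, of 113112 nt, had 280 to 329 CPM in SA, 311 to 367 in IBA, 152 to 186 in Ent, 120 to 133 in ET and 98.8 and 119 in LT, so that most of its fall took place on entry (log2 fold change from IBA to Ent -0.97, SE 0.13, adjusted p = 0.00239 by edgeR). The unit of MIR30C2 and MIR30A fell at both steps, from 129 to 152 CPM in IBA through 77.4 to 95.2 in Ent to 36.1 to 57.7 in ET. Nrdc:MIR761_like had 192 to 217 CPM in IBA, 89.8 to 123 in Ent and 87.6 to 115 in ET and LT, with a log2 fold change of -0.08 from Ent to ET that did not pass. Ddx5:MIR3064:Polg2:G33330, whose Ddx5 is an RNA helicase of splicing and microRNA processing, was the reverse, with 191 to 209 CPM in IBA, 272 to 373 in Ent, 551 to 652 in ET and 668 and 723 in LT (log2 fold change from LT to IBA -1.81, SE 0.17, adjusted p = 1.21e-05 by edgeR). MIR148A, MIR107 with Pank1, and MIR324 were in further units that were lower in the cold (log2 fold change from LT to IBA 1.06, 1.96 and 0.95).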

How the data were processed

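GRO-seq libraries of 14 livers were analysed. The authors trimmed reads with cutadapt, aligned them with BWA to HiC_Itri_2, extended the gene annotation from the GRO-seq reads themselves with fstitch over all states, merged overlapping genes, left out the first 500 nt of each unit, and counted uniquely aligned reads with featureCounts. As deposited, the authors' table holds unnormalized whole-number counts. Because the annotation was extended from the same reads, the extent of a merged unit is not independent of the states.

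Counts of all 6324 units were normalized by TMM and fitted with edgeR 4.0.16 (R 4.3.3, glmQLFit with legacy set, state only), with no filter. Tests were adjusted over all units by Benjamini-Hochberg (thresholds 0.001 and 0.05). CPM use the TMM library size. Standard errors are the log2 fold change divided by the square root of F. Shares were compared by two-sided exact permutation over libraries (scipy 1.17.1). Python 3.11.15, pandas 2.3.3, numpy 2.4.6 and matplotlib 3.10.9 were used. The steps were tested on simulated data. Each library is a separate animal.

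Alternatives were DESeq2 1.42.0, DESeq2 size factors, library sizes set to uniquely mapped reads (trimmed reads times the percentage printed by the study), a minimum of 10 counts in every library, a replicate block, season of collection added to the model (the earliest season against the later ones, since a term for the season of ET alone cannot be told from ET), the compared groups alone, and each library left out. For shares they were the denominator, the merged unit of most counts and units of 200 kb or more.

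Units named in the text are, per transition, the 3 largest rises and 3 largest falls at 0.001 without overlap between libraries (at 0.05 where fewer), the smallest p among the states in each class of names and length, the extremes of names, length and counts, the 2 smallest p in each of 13 gene lists, up to 5 microRNA units, the Nxph4 unit, and the list members and neighbours given with fewer values, which were chosen after their values were seen. Lists were matched by symbol or by its first letters, which also takes a few genes of other function. Names beginning with sno, and mascRNA and uc names, were added to the small RNAs after the names were seen. Members and lists were chosen with earlier results of these data known. RefSeq names are of another assembly and were used for names only. No genome was used here, and no sequence is shown. Depth was 3713883 to 8884763 counts per library. Some units of the lists are not reported here by name.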

Additional observations from a re-analysis of the deposited data

How the results depend on the processing

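At an adjusted p of 0.05 the counts of changed merged units were 945 among the states and, for the steps ending in IBA (from SA), Ent, ET, LT and IBA (from LT), 68, 233, 443, 1 and 765. With DESeq2 at 0.001 they were, in that order, 747, 46, 118, 214, 4 and 501. From Ent to ET the count of 32 became 61 with libraries scaled to uniquely mapped reads, 9 with the replicate block, 0 with season as a term and 0 with the compared groups alone, and from LT to IBA it became 91 with season. The replicate numbers do not pair the animals: of 26 pairs of libraries with the same number 6 had correlated deviations above 0.1 (range -0.263 to 0.234), and the replicate block gave 279 units among the states and 198 from LT to IBA. Leaving out each library gave 247 to 372 among the states and, in the same order of steps, 0 to 3 (3 without ET replicate 1), 0 to 1 (1 without SA replicate 1 or 2 or ET replicate 1), 0 to 46, 0 in every case, and 62 to 295. The cold minus warm differences in shares, as percent of uniquely mapped reads, were 2.20 points for all merged units, 0.965 for 2 names, where the sign turned, 0.607 for 3 names and 0.628 for 4 or more. The exact permutation p, unadjusted, was 0.0303 for 4 or more and 0.0043 for the others. Without the merged unit of most counts the difference for 4 or more names was 0.709 points of counts (exact permutation p = 0.0390, unadjusted). For the other shares p was then 0.0779 to 0.667. Leaving out each library, the differences in percent of counts for all, 2, 3 and 4 or more names ran from 0.5259 to 1.17, -0.206 to 0.0339, 0.298 to 0.4933 and 0.239 to 0.732. The sign for 2 names turned without SA replicate 1 (0.0175), IBA replicate 2 (0.0339) or IBA replicate 3 (0.0156). Without SA replicate 3 the exact permutation p was 0.0238, 0.0238 and 0.0159 for all, 3 names and 4 or more, and without IBA replicate 2 it was 0.0476 for 3 names. The causes were not tested. Of 56 fold changes of named units 25 kept direction and side of the threshold in every alternative. Over 1171 recomputed values 1037 kept both, 125 no longer passed, 9 newly passed and 0 changed sign. Depth was lowest in short units, where the median merged unit under 10 kb had 226 counts per library against 807 over all merged units.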
